A study of Mus musculus with 2 samples.

Results

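The cells described here are the cardiomyocyte-like cells with the most cardiac actin mRNA in a control sample of differentiating mouse embryonic stem cells. They were selected on 1 measured value, the level of Actc1, which encodes the cardiac isoform of alpha-actin. A control cell was taken when it held 15000 or more unique molecular identifiers (UMIs, each standing for 1 captured mRNA molecule), 500 or more genes, at most 10% mitochondrial UMIs, and Actc1 at 1000 or more CPM, the UMIs of the gene per 1000000 UMIs of the cell. The rule found 356 of 6354 control cells, a share of 5.603% (exact Clopper-Pearson 95% interval 5.05 to 6.20%).

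The study took D3 mouse embryonic stem cells of 2 genotypes through cardiomyocyte differentiation and sequenced single cells of each on day 6 in droplet libraries (DNBelab C). One sample carried a knockout of Zbtb16, a zinc finger transcription factor gene, and the other was wild type (WT, the control). The labels do not say whether the knockout cells are 1 clone. There was 1 library per genotype, so differences were not tested and are given as sizes without a replicate. Intervals beside sums of UMIs are exact Poisson 95% intervals, and all intervals cover counting error only.

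A cardiomyocyte contracts through its sarcomeres, in which thin filaments of actin, tropomyosin and troponin slide along thick filaments of myosin between Z discs, with titin spanning the space between. Calcium released from the sarcoplasmic reticulum binds troponin C and starts each contraction, and the pump Atp2a2, held in check by phospholamban (Pln), takes it back up. In the embryo these genes are switched on as cardiac progenitors under factors such as Nkx2-5, Gata4, Mef2c and Tbx5 become beating cells, and the early myocardium uses some isoforms later kept by the atria, the ventricles or smooth muscle.

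Some of the genes with the largest ratios in these cells carry in their promoters a CArG box, the sequence to which serum response factor binds in muscle promoters. The promoter windows run from 250 bases before to 50 bases after the transcription start in RefSeq (build GRCm38.p6; the deposited matrices hold no coordinates and the submitters' processing notes name GRCm39, so the windows serve as sequence only). Of Actc1 and the 15 genes with the largest ratio of high-Actc1 cells over the other control cells, 15 of 16 had a window and 6 of those held a CArG box (40.0%), namely Actc1, Myl3, Fbxl22, Asb2, Myom1 and Ldb3. Actc1, the gene that chose the cells, is 1 of these 6. In the fixed lists the box was in 3 of 12 thin filament genes and 3 of 12 thick filament genes with a window. It was in 2 of 15 Z disc genes (13.3%) and in 0 of 15 calcium handling genes with a window. These lists share genes with the 16 above, among them Actc1 of the thin filament and Myom1 of the thick filament, so the counts are not separate. Of the 15 genes with the lowest ratio, 11 had a window and none held the box (0 of 11). Among 27025 genes with a window the share was 1.81%, and among 8195 genes with a window and 5 or more CPM in either group of control cells it was 1.67%. The box reads as a CArG box on both strands, so each match was counted once. A match describes the letters of the window and does not show that the factor binds there. Windows of 5 of these genes are printed 5′ to 3′ on the strand of the gene, with the box in capitals, namely that of Actc1, which chose the cells, and those of the 4 genes with a box that had the largest ratios.
Actc1 (chr2:114052826-114053125, minus strand, box starting 47 bases before the start): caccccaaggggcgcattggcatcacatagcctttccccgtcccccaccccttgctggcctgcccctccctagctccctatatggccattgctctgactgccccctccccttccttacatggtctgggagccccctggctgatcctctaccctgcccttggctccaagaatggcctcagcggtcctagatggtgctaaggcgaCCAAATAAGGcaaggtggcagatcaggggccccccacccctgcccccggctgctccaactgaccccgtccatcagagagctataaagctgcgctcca
Myl3 (chr9:110763428-110763727, plus strand, 85 bases before the start): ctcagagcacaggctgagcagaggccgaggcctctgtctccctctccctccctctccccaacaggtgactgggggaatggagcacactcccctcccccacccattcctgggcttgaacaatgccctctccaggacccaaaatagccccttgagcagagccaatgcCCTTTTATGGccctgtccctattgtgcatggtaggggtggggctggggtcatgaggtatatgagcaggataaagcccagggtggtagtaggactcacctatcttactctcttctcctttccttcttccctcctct
Fbxl22 (chr9:66514544-66514843, minus strand, 222 bases before the start): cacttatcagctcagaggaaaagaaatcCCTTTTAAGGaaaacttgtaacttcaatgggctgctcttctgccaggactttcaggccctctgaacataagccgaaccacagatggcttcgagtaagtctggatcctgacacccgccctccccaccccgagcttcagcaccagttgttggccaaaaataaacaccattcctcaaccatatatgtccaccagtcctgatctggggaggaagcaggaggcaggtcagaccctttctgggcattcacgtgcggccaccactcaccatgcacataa
Asb2 (chr12:103355952-103356251, minus strand, 64 bases before the start): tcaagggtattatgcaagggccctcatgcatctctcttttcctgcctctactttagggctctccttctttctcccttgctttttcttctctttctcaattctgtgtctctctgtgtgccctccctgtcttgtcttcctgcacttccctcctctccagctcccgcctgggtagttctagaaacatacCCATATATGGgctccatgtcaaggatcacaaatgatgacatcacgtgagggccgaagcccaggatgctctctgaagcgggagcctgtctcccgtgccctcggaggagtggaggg
Myom1 (chr17:71019307-71019606, plus strand, 99 bases before the start): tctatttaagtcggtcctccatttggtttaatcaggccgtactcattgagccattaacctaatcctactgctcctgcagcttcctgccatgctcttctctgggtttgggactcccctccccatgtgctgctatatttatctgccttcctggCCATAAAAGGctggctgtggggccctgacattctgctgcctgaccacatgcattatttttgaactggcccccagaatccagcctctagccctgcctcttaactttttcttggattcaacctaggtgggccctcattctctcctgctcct
The windows of Myh6, Myh7, Myl4, Pln, Tdgf1, Cnn1, Tnni3, Tnnc1 and Ankrd1 held no such box. Asb2 has 2 windows, and the one printed is the one with the box.

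The choice of a limit cut through a continuous range. Actc1 per cell within the high-Actc1 cells had a 10th percentile of 1148 CPM, a median of 2348 CPM, a 90th percentile of 6742 CPM and a maximum of 18177 CPM. No gap in cell numbers marked the limit: 27 cells lay at 900 to under 1000 CPM and 30 cells at 1000 to under 1100 CPM. In the sums of these few cells the other cardiac genes stood higher just inside the limit than just outside it, with no test and no interval. At 1000 to under 1100 CPM the summed cells had 221 CPM of Myl3 and 3359 CPM of Myl7, against 99.1 CPM of Myl3 and 2416 CPM of Myl7 at 900 to under 1000 CPM. Smaller differences were seen for Myh7, with 113.5 CPM against 104.8 CPM, and for Nkx2-5, with 40.9 CPM against 33.6 CPM. The remaining control cells comprised 626 cells at 100 to under 1000 CPM of Actc1 and 5372 cells under 100 CPM, of which 4016 had no Actc1 UMI.

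**Figure D1:**
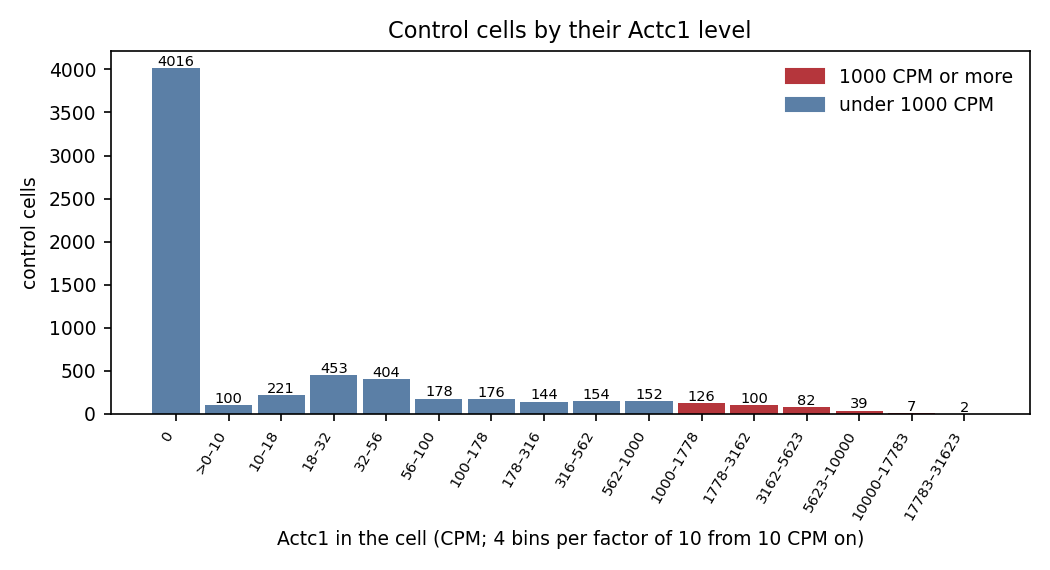
Number of control cells (y axis) by their own Actc1 level in CPM (x axis, logarithmic bins after a bar for cells without an Actc1 UMI). Cells that met the limit of 1000 CPM are in red and the others in blue; the 4016 cells at 0 form the tallest bar, and the numbers decline through 1000 CPM without a gap.

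The high-Actc1 cells were shallower than the rest of their library. Their median was 28480 UMIs and 5709 genes per cell, against 37922 UMIs and 6428 genes in the other control cells, and the median share of mitochondrial UMIs was 4.47% against 4.21%. Their UMIs summed to 12282501, against 280258817 in the other control cells, so counting error was small for all but rare genes. No doublet caller was run, and the share of doublets was not tested. The 90th percentile of UMIs was 55168 in the high-Actc1 cells and 82168 in the other control cells. Of the control and knockout libraries, 16 barcodes passed the cell filters in both, and none of these was a high-Actc1 cell. Zbtb16, the targeted gene, had 340 UMIs in the knockout cells outside the rule, or 0.993 CPM, against 22.2 CPM in the other control cells.

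The label of cardiomyocyte was set beside Myl3, Myh6, Myh7 and Pln, which the rule did not use. These 4 genes came with the label, and the cells were chosen with earlier results of these data known. Their levels describe the cells and are no independent check of the label. All 4 were higher in the high-Actc1 cells. Myl3, the ventricular and slow-muscle essential light chain of myosin, had 502.5 CPM (490 to 515) in the high-Actc1 cells and 7.87 CPM (7.54 to 8.20) in the other control cells. Myh6, the alpha heavy chain that marks atrial and early myocardium, had 157 CPM (150 to 165), against 3.29 CPM (3.08 to 3.51). Myh7, the beta heavy chain of embryonic ventricle, had 254 CPM (245 to 263), against 9.53 CPM (9.18 to 9.90). Pln had 118.5 CPM (112.5 to 125), against 7.16 CPM (6.85 to 7.48). With every cell thinned to 15000 UMIs, 96 of the 356 cells showed all 4 genes, 105 showed 3, 84 showed 2, 43 showed 1 and 28 showed none. In the other control cells thinned alike, 5027 of 5998 showed none and 16 showed all 4. Without thinning, 15 of the 356 high-Actc1 cells showed none of the 4.

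These shares were set beside those in cell types that should lack the genes. After thinning, Myl3 was seen in 71.1% of the high-Actc1 cells, against 1.98% of 252 endothelial-like cells and 9.09% of 88 visceral endoderm-like cells of the same library. Myh6 was seen in 56.5% of the high-Actc1 cells, against 0.794% of the endothelial-like cells and 0 of the 88 endoderm-like cells, which allows a share of cells with a UMI of up to 3.41% (3 of 88 cells; the exact 95% upper limit is 4.11%). Actc1 itself was seen in 7.94% of the endothelial-like and 11.4% of the endoderm-like cells. Those classes were other control cells with 3 or more of their class's 6 markers and 500 or more CPM of them, with medians of 52088 and 58062 UMIs before thinning. Without thinning, Myl3 was seen in 77.0% of the high-Actc1 cells and in 10.6% of the other control cells.

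Across the genome, 10300 genes reached 5 CPM in the high-Actc1 cells or in the other control cells. Of these, 367 (3.56%) were 2-fold or more higher in the high-Actc1 cells and 296 (2.87%) were 2-fold or more lower, where a fold is the ratio of CPM plus 1. The median log2 ratio over all 10300 genes was -0.05. The choice on Actc1 was made in the same cells, so these counts describe the cells chosen and support nothing further. The shares of 3.56% and 2.87% are the background for the counts of list members against the other control cells given below. The 15 genes with the largest ratios, among genes at 50 or more CPM and leaving out Actc1, were Myl3, Myh6, Myh7, Fbxl22, Asb2, Myl4, Sh3bgr, Pln, Myom1, Tdgf1, Cnn1, Tnni3, Tnnc1, Ankrd1 and Ldb3.

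Among the gene lists the thick filament had the largest median ratio, apart from the markers of cardiomyocytes. Of 14 thick filament and titin genes 11 were measured at 5 CPM or more, and 10 of these were 2-fold or more higher, with a median log2 ratio of 3.86. Myl4, the atrial and embryonic essential light chain, had a per-cell median of 1683 CPM in the high-Actc1 cells (10th percentile 662 CPM, 90th percentile 3447 CPM), and 1706 CPM in their sum against 95.3 CPM in the other control cells. Myl7, the atrial regulatory light chain, had 5417 CPM, against 615 CPM. Ttn, the gene of titin, had 1971 CPM, against 216 CPM. Myom1, which ties thick filaments together at the M line, had 63.7 CPM, against 3.46 CPM, and Mybpc3, cardiac myosin-binding protein C, had 119 CPM, against 10.99 CPM. Mylk3, the cardiac myosin light chain kinase, was the measured gene that did not pass 2-fold, with 29.7 CPM in the high-Actc1 cells and 18.7 CPM in the other control cells.

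The thin filament showed a mixture of isoforms. Of 13 listed genes 11 were measured and 9 were 2-fold or more higher, at a median log2 ratio of 2.22 that includes Actc1. Tnnt2, cardiac troponin T, had 2515 CPM in the high-Actc1 cells and 248 CPM in the other control cells, and every high-Actc1 cell held a UMI of it. Tnni1, the slow skeletal troponin I that the embryonic heart uses, had 1154 CPM, against 392 CPM, a log2 ratio of 1.56. Tnni3, the troponin I of the mature heart, had 104 CPM, against 7.14 CPM, a log2 ratio of 3.69. Tnni1 had a UMI in 100% of the thinned high-Actc1 cells and in 89.9% of the other control cells, whereas Tnni3 had one in 51.7% and 8.67%. Tpm1, an alpha-tropomyosin also used outside muscle, had 4017 CPM, against 1120 CPM. Acta1, the skeletal alpha-actin, had 17.4 CPM, against 7.55 CPM, but 93.9% of its UMIs in the high-Actc1 cells lay in the 18 cells with the most of it. Without the top 5% of cells for that gene in each group, its log2 ratio was 0.07, against 1.11 with them.

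Z disc genes and sarcomere assembly factors were higher over most of their lists. Of 16 measured Z disc and intercalated disc genes 14 were 2-fold or more higher (median log2 ratio 2.49), and of 18 measured assembly and muscle RNA factors 15 were (median 1.75). Csrp3, the muscle LIM protein of the Z disc, had 274 CPM in the high-Actc1 cells and 32.9 CPM in the other control cells. Actn2, sarcomeric alpha-actinin, had 27.4 CPM, against 2.27 CPM. Unc45b, a myosin chaperone, had 339 CPM, against 72.7 CPM, and Rbm24, which regulates splicing in muscle, had 523 CPM, against 117 CPM. Among genes outside these lists, Asb2, a ubiquitin ligase subunit of muscle that targets filamins, had 58.8 CPM, against 2.07 CPM, and Fbxl22, an F-box protein of the cardiac Z disc, had 129 CPM, against 5.28 CPM. Ankrd1, a stress-responsive ankyrin repeat protein of muscle, had 82.5 CPM, against 6.03 CPM, and again few cells carried it, with 93.0% of its UMIs in the top 18 cells.

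Calcium handling genes were mostly higher, while Casq2 was near 0. Of 18 measured genes 12 were 2-fold or more higher, with a median log2 ratio of 2.29. Ryr2, the release channel of the sarcoplasmic reticulum, had 222 CPM in the high-Actc1 cells, against 38.8 CPM in the other control cells. Atp2a2 had 610 CPM, against 141 CPM, and Slc8a1, the sodium-calcium exchanger, had 145 CPM, against 15.2 CPM. Trdn, the gene of triadin, had 13.8 CPM, against 0.193 CPM. Casq2, the cardiac calcium store protein, had 0.163 CPM in the high-Actc1 cells and 0.04995 CPM in the other control cells. The related gene Casq1 had 10.58 CPM, against 0.749 CPM. Of 18 ion channel and gap junction genes 7 were measured and 3 were 2-fold or more higher, among them Hcn4, the main pacemaker channel, with 54.5 CPM against 11.03 CPM. Gja1, connexin 43, had 40.2 CPM, against 80.1 CPM, a log2 ratio of -0.98 that is short of 2-fold.

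Chamber genes did not fall to 1 side. Of 9 measured atrial genes 6 were 2-fold or more higher, and of 10 measured ventricular genes 6 were 2-fold or more higher and 3 lower. Myl2, the ventricular regulatory light chain, had 41.4 CPM in the high-Actc1 cells, against 1.21 CPM in the other control cells, and was seen in 19.9% of the thinned high-Actc1 cells. Irx4, a ventricular transcription factor, had 19.9 CPM, against 3.74 CPM. The natriuretic peptide gene Nppa, a marker of working atrial and trabecular muscle, had 2.36 CPM, against 0.0892 CPM, and only 1.40% of the high-Actc1 cells held a UMI of it. Hand1, a transcription factor of ventricular precursors and of extraembryonic mesoderm, was lower, with 133 CPM in the high-Actc1 cells, against 669 CPM in the other control cells, a log2 ratio of -2.32.

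Smooth muscle genes that embryonic heart muscle also uses were higher. Of 10 measured genes of that list 6 were 2-fold or more higher. Acta2, smooth muscle actin, had 3247 CPM in the high-Actc1 cells, against 481 CPM in the other control cells, with a per-cell median of 2813 CPM. Cnn1, a calponin, had 108 CPM, against 6.93 CPM, and Myocd, the partner of serum response factor in heart and smooth muscle, had 142 CPM, against 21.0 CPM. Myh11, the defining heavy chain of smooth muscle, had 3.09 CPM, against 0.460 CPM, with 92.1% of its UMIs in the high-Actc1 cells in the top 18. Srf itself, which encodes serum response factor, had 36.5 CPM, against 20.4 CPM, short of 2-fold. The skeletal muscle factors Myod1, Myog, Myf5 and Pax7 had no UMI in the 356 cells, where 3 UMIs would be 0.244 CPM.

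Energy genes differed between muscle isoforms and general ones. Of 9 measured muscle isoforms of energy enzymes 6 were 2-fold or more higher (median log2 ratio 1.98), and of 13 measured counterparts used in other tissues 1 was (median 0.09). Over all 10300 measured genes the share was 3.56%. Pgam2, the muscle phosphoglycerate mutase, had 364 CPM in the high-Actc1 cells and 65.4 CPM in the other control cells, while its counterpart Pgam1 had 789 CPM and 803 CPM. Cox6a2, the muscle subunit of cytochrome oxidase, had 30.1 CPM, against 2.62 CPM, while Cox6a1 had 213 CPM, against 208 CPM. Creatine kinase ran the other way: the muscle form Ckm had no UMI in the high-Actc1 cells, and the brain form Ckb had 111 CPM, against 21.6 CPM. None of 21 nuclear genes of oxidative phosphorylation passed 2-fold in either direction (median 0.16). Ppargc1a, a coactivator of mitochondrial genes, had 34.1 CPM, against 3.26 CPM. Slc2a1, the general glucose transporter, was lower at 180 CPM, against 633 CPM, a log2 ratio of -1.81.

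**Figure D2:**
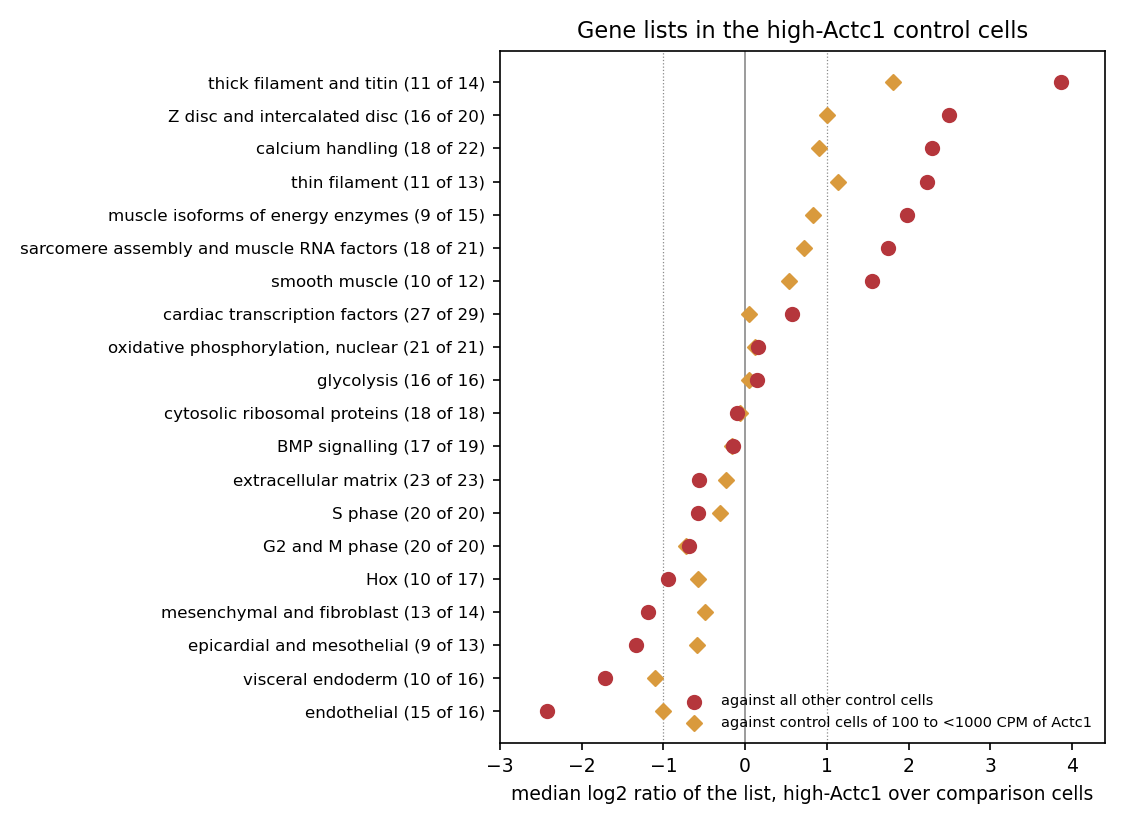
Median log2 ratio (x axis) of each gene list (y axis, with genes measured of genes listed), high-Actc1 cells over all other control cells (red circles) and over control cells of 100 to under 1000 CPM of Actc1 (orange diamonds). Dotted lines mark 2-fold; the thick filament list is at 3.86 and the endothelial list at -2.42 against all other control cells.

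Endothelial, visceral endoderm, mesenchymal, epicardial and pluripotency markers were low in most high-Actc1 cells, with a few exceptions. Smooth muscle markers were higher instead. The 3 smooth muscle markers summed to 477.5 CPM in the high-Actc1 cells, against 106.7 CPM in the other control cells. Their per-cell medians were 144.7 CPM and 34.31 CPM, and 58 high-Actc1 cells held no UMI of them. The 6 endothelial markers summed to 13.8 CPM in the high-Actc1 cells, against 77.3 CPM in the other control cells, with a per-cell median of 0 CPM in both and no marker wholly absent. The 6 visceral endoderm markers summed to 51.8 CPM, against 121 CPM, also with medians of 0 CPM. Ttr, an endoderm transport protein, made up most of that sum with 46.3 CPM, and 97.9% of its UMIs came from the 18 cells with the most of it. The 4 mesenchymal markers summed to 24.9 CPM, against 120 CPM, the 3 epicardial markers to 21.0 CPM, against 67.8 CPM, and the 3 pluripotency markers to 2.28 CPM, against 38.9 CPM. A longer list of 12 pluripotency genes went the other way in its sum, with 99.3 CPM, against 71.8 CPM. Of its 5 measured genes 1 was 2-fold or more higher and 3 were lower. One high-Actc1 cell met the criteria for the endothelial-like class and 1 those for the endoderm-like class. The part of such cells in the results was not tested.

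The 15 genes with the lowest ratios were Tdo2, Ctla2a, Ramp2, Igfbp2, Hoxb6, Msx1, Hand1, Pmp22, Efnb1, Msx2, Col3a1, Stard8, Slc2a1, Rbp4 and Ccdc80. Msx1, a transcription factor of mesoderm and mesenchyme, had 36.1 CPM in the high-Actc1 cells and 206 CPM in the other control cells. Pmp22, a membrane protein of growth-arrested fibroblasts and glia, had 158 CPM, against 744 CPM. Ctla2a had 8.79 CPM, against 103 CPM, and Rbp4, an endoderm retinol carrier, had 16.8 CPM, against 58.3 CPM. Those differences rested partly on few cells: without the 5% of cells with the most of the gene in each group, the log2 ratio was -1.17 for Ctla2a, against -3.41 with them, and -0.81 for Rbp4, against -1.74 with them. For Hand1 it was -2.75, against -2.32. Of 10 measured Hox genes 5 were 2-fold or more lower, and Hoxb6 had 5.86 CPM, against 50.7 CPM.

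The cardiac transcription factors stood out less than the genes of the contractile apparatus. Of 27 measured factors 7 were 2-fold or more higher and 1 was lower, with a median log2 ratio of 0.58. Nkx2-5 had 84.3 CPM in the high-Actc1 cells, against 11.9 CPM in the other control cells. Mef2c had 853 CPM, against 268 CPM, and Hopx, a homeodomain cofactor of cardiac growth, had 78.8 CPM, against 10.02 CPM. Gata4 had 206 CPM, against 134 CPM, Gata6 had 580 CPM, against 388 CPM, and Hand2 had 295 CPM, against 244 CPM, all short of 2-fold. Zbtb16, the gene knocked out in the other sample, had 22.2 CPM (19.67 to 25.03) in the high-Actc1 cells and 22.2 CPM (21.7 to 22.8) in the other control cells. Igf2bp3, an mRNA-binding protein, had 168 CPM, against 184 CPM, and Igf2bp1 had 138 CPM, against 214 CPM.

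Signalling and matrix lists differed less than the sarcomere lists. Of 17 measured BMP genes 3 were 2-fold or more higher and the median log2 ratio was -0.15. Bmp2, a ligand that promotes cardiac fate, had 131 CPM in the high-Actc1 cells and 46.2 CPM in the other control cells, and the BMP target Id1 had 292 CPM, against 433 CPM. Wnt2, a ligand expressed in the inflow region of the heart, had 247 CPM, against 110 CPM. Jag1, a Notch ligand, had 53.0 CPM, against 12.9 CPM. Of 20 measured Notch, FGF and retinoic acid genes 2 were 2-fold or more higher and 5 lower (median log2 ratio -0.54), among the lower Crabp1, a retinoic acid carrier, with 49.2 CPM, against 122 CPM. Of 23 extracellular matrix genes 5 were 2-fold or more lower and none higher (median -0.56), and the fibronectin gene Fn1 had 165 CPM, against 371 CPM.

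Against the 626 control cells of 100 to under 1000 CPM of Actc1, fewer genes differed, and contractile genes led. Of 10176 measured genes 112 (1.10%) were 2-fold or more higher in the high-Actc1 cells and 39 (0.383%) were 2-fold or more lower. The 8 genes with the largest ratios among genes at 50 or more CPM were Myl3, Myh6, Fbxl22, Tnni3, Asb2, Myh7, Tdgf1 and Sh3bgr. Myl3 had 502.5 CPM in the high-Actc1 cells and 48.6 CPM in the cells of 100 to under 1000 CPM, and Myh6 had 157 CPM, against 15.2 CPM. Of the thick filament genes 10 of 11 were still 2-fold or more higher, but of the 26 measured cardiac transcription factors 2 were, Nkx2-5 and Hopx. Gata4 had 206 CPM, against 205 CPM, Tbx5 had 76.0 CPM, against 63.2 CPM, and Sfrp5, a secreted Wnt antagonist of cardiac precursors, had 296 CPM, against 267 CPM. The 8 genes with the lowest ratios were Pmp22, Hand1, Efnb1, Msx1, Spink1, Col3a1, Ptn and Dlk1. Spink1 rested on few cells: against all other control cells its log2 ratio was 0.05 without the 5% of cells with the most of it in each group and -1.69 with them. Dlk1, an imprinted gene of embryonic mesoderm, had 228 CPM in the high-Actc1 cells and 434 CPM in the cells of 100 to under 1000 CPM.

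Along ranges of Actc1 the contractile genes and the regulators differed in shape. Myl3 and Tnnt2 stood higher in each range up to the top. Myl3 had 2.19 CPM in cells at 0, 33.0 CPM at 100 to under 300 CPM of Actc1, 242 CPM at 1000 to under 2000 CPM, 471 CPM at 2000 to under 5000 CPM and 1292 CPM at 5000 CPM or more. Tnnt2 had 135, 799, 1816, 2587 and 4264 CPM in the same 5 ranges. Gata4 and Sfrp5 were nearly level above 100 CPM of Actc1. Gata4 had 118 CPM at 0 and then 211, 214, 202 and 192 CPM in the other 4 ranges, and Sfrp5 had 56.0 CPM at 0 and then 245, 305, 294 and 274 CPM. Nkx2-5 differed from them, with 8.38 CPM at 0 and then 30.3, 65.4, 80.3 and 145 CPM. Hand1 ran downward, with 743 CPM at 0 and then 332, 158, 127 and 78.9 CPM. Cdkn1c, an inhibitor of cyclin-dependent kinases, had 570 CPM at 0 and then 855, 1208, 1499 and 2149 CPM.

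**Figure D3:**
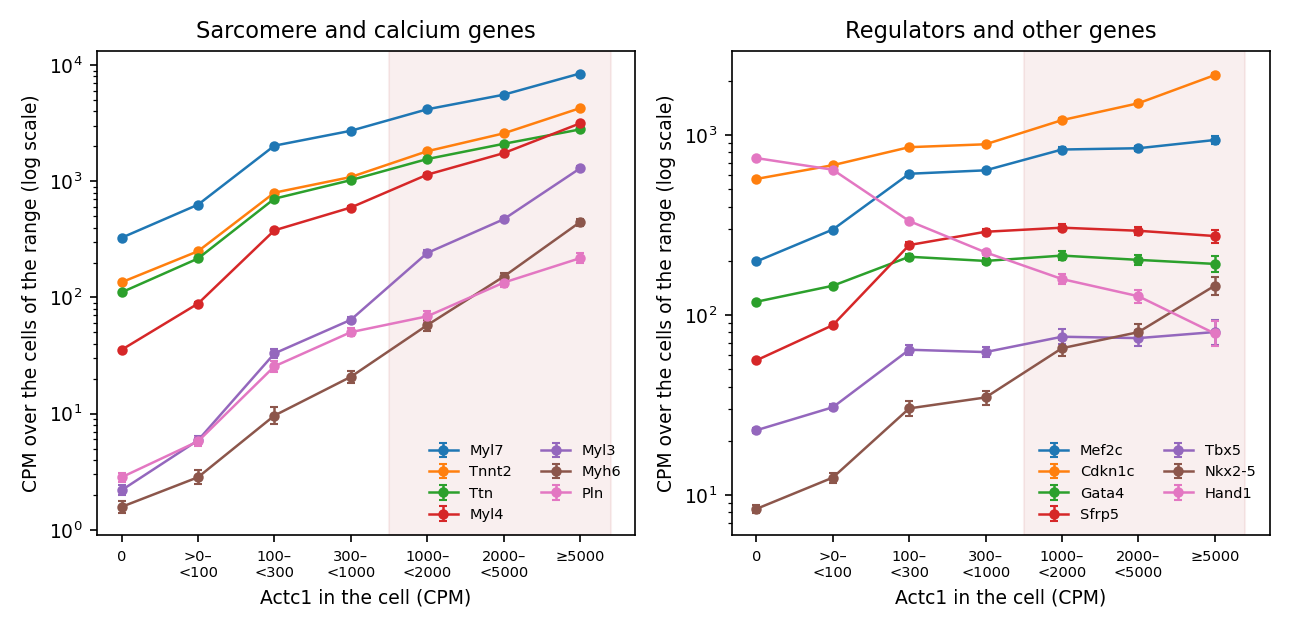
CPM summed over the control cells of each Actc1 range (log y axis) along 7 ranges of Actc1 (x axis), for sarcomere and calcium genes (left) and for regulators and other genes (right), with exact Poisson 95% intervals. The shaded ranges hold the 356 high-Actc1 cells; Myl3 is at 1292 CPM at the top while Gata4 is at 192 CPM there and at 211 CPM at 100 to under 300 CPM.

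Within the 356 cells, some pairs of contractile mRNAs had a high rank correlation from cell to cell and others a low one. Counting error lowers the correlation for genes with few UMIs per cell, such as Pln and Tnni3, and its part was not tested. Across these cells Spearman's rho was 0.80 between Tnnt2 and Myl7, 0.77 between Tnnt2 and Myl4, 0.63 between Actc1 and Tnnt2 and 0.49 between Actc1 and Myl3. It was 0.30 between Actc1 and Pln, 0.29 between Actc1 and Ttn, 0.26 between Actc1 and Tnni3, 0.19 between Myl3 and Tnni3, 0.16 between Myh7 and Tnni3 and 0.05 between Acta2 and Tnni3. The cells come from 1 library and differ in depth, and Actc1 had a rho of -0.17 with the UMIs of the cell. With those UMIs, rho was -0.27 for Tnnt2, -0.29 for Myl7 and -0.32 for Myl4. The other genes correlated ranged from -0.21 for Pln and Tnni3 to 0.04 for Myh7. With the summed genes of G2 and M phase, rho was -0.38 for Tnnt2, -0.29 for Myl7, -0.42 for Myl4 and -0.28 for Actc1. The part of depth and of the cell cycle in the correlations between genes was not tested. Pln, Myl3 and Myh6 had a wide spread: their per-cell 10th percentiles were 0 CPM, their medians 62.5, 228 and 54.7 CPM, and their 90th percentiles 384, 1563 and 516 CPM. Cells held few UMIs of Pln and Myh6, so counting error is part of that spread and was not separated from it. Tnnt2, with more UMIs per cell, had a 10th percentile of 1107 CPM, a median of 2444 CPM and a 90th percentile of 4486 CPM.

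Genes of the dividing cell were lower where Actc1 was highest. The list of 20 genes of G2 and M phase was summed per cell after thinning to 15000 UMIs, and cells with 1000 or more CPM of it were counted. These were 38.2% of the high-Actc1 cells (136 of 356, exact 95% interval 33.1 to 43.5%), against 67.6% of the other control cells (66.4 to 68.8%). Along Actc1 the share was 68.0% of cells at 0, 71.0% at over 0 to under 100 CPM, 59.1% at 100 to under 300 CPM, 56.9% at 300 to under 1000 CPM, 49.0% at 1000 to under 2000 CPM, 39.9% at 2000 to under 5000 CPM and 11.8% at 5000 CPM or more. The last share was 8 of 68 cells (5.22 to 21.9%), and without thinning it was 13.2%. The limit of 5000 CPM was added after values had been seen. Depth moved with the measure: among the high-Actc1 cells those above the limit of the list had a median of 34961 UMIs, against 26396 UMIs in those below it, and its part in the shares was not tested.

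**Figure D4:**
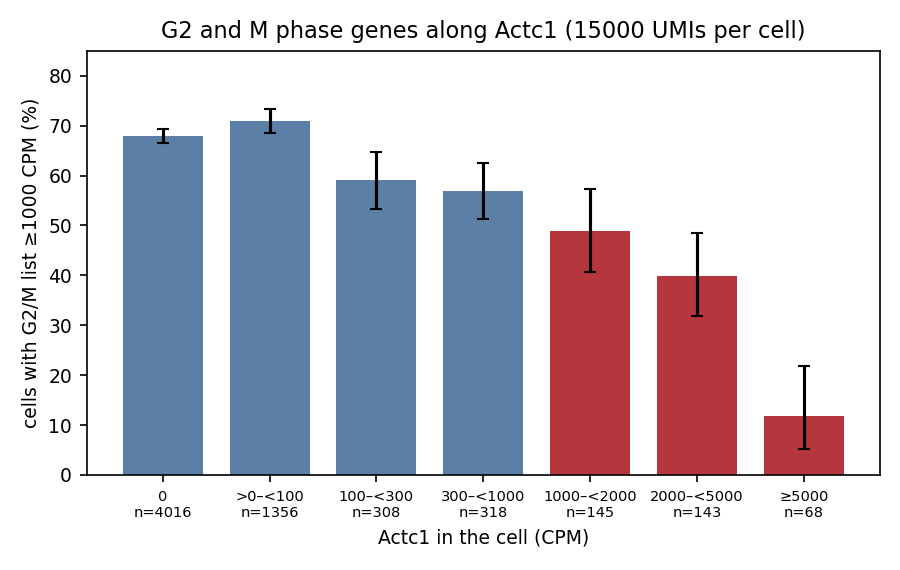
Share of control cells with 1000 or more CPM of the G2 and M phase list (y axis, %) in 7 ranges of Actc1 (x axis), each cell thinned to 15000 UMIs, with exact Clopper-Pearson 95% intervals. Red bars are the high-Actc1 cells; their shares are 49.0, 39.9 and 11.8% along the ranges, below the 68.0% of cells without an Actc1 UMI.

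The 68 cells at 5000 CPM or more of Actc1 were set against the 145 cells at 1000 to under 2000 CPM. Of 10239 measured genes 206 (2.01%) were 2-fold or more higher in the cells at 5000 CPM or more and 361 (3.53%) were 2-fold or more lower. Of the 20 G2 and M phase genes 19 were 2-fold or more lower (median log2 ratio -1.94), among them Top2a, the topoisomerase of dividing cells, with a log2 ratio of -1.98, and the kinase gene Cdk1 with -2.03. Of the 20 S phase genes 3 were 2-fold or more lower (median -0.62). Of 11 thick filament genes 8 were 2-fold or more higher (median 1.48), and Actn2 of the Z disc had a log2 ratio of 2.62. Of 10 measured muscle isoforms of energy enzymes 6 were 2-fold or more higher. The hexokinase gene Hk1, of the glycolysis list, had a log2 ratio of 1.95.

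The high-Actc1 cells were not uniform in their chamber and progenitor genes. They were split, after values had been seen, at 100 CPM of the summed nuclear receptor genes Nr2f1 and Nr2f2, which are expressed in the atrial and venous pole of the embryonic heart. This gave 196 cells at or above 100 CPM and 160 below, with median depths of 27887 and 29024 UMIs and median Actc1 of 2184 and 2657 CPM. Sfrp5 had 412 CPM (397 to 428) in the Nr2f-high cells and 162 CPM (151 to 173) in the Nr2f-low cells. Shox2, a transcription factor of the sinus node and venous pole, had 36.2 CPM (31.8 to 41.1), against 10.2 CPM (7.72 to 13.1). Foxf1, a factor of the posterior second heart field, had 77.1 CPM, against 30.0 CPM, and Smoc2, a secreted matrix protein, had 98.9 CPM, against 26.8 CPM.

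Other genes were lower in the Nr2f-high cells, among them genes of both chambers. Summed Actc1 was lower too, with 2698 CPM in the Nr2f-high cells and 3550 CPM in the Nr2f-low cells. The atrial and early genes Myl7, Myl4 and Myh6 were lower there too, with 4874 CPM of Myl7 in the Nr2f-high cells and 6044 CPM in the Nr2f-low cells. Myl4 had 1585 CPM, against 1845 CPM, and Myh6 had 116.5 CPM, against 204.5 CPM. Their intervals did not overlap, but these leave out the spread between cells. From cell to cell, Spearman's rho with summed Nr2f1 and Nr2f2 was -0.28 for Myl7, -0.11 for Myl4 and -0.21 for Myh6. Myl7, Myl4 and Myh6 were not compared at matched Actc1. The ventricular factor Irx4 had 18.7 CPM (15.6 to 22.3), against 21.2 CPM (17.6 to 25.3). Myl2 had 9.58 CPM (7.36 to 12.3) in the Nr2f-high cells and 78.0 CPM (70.9 to 85.6) in the Nr2f-low cells. Myh7 had 154 CPM, against 368 CPM, and Hopx had 44.7 CPM, against 118 CPM. Tdgf1, a co-receptor of Nodal that is also known from the embryonic outflow tract, had 34.5 CPM, against 130 CPM, and the growth factor gene Fgf8 had 9.73 CPM, against 32.6 CPM. Tnni3 had overlapping intervals, with 103 CPM in the Nr2f-high cells and 105 CPM in the Nr2f-low cells, and so had the progenitor factor Isl1, with 59.8 CPM, against 63.4 CPM. Cdkn1c had 1039 CPM, against 1976 CPM.

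The same directions held at matched Actc1 for Sfrp5 and Myl2. At 1000 to under 2000 CPM of Actc1, Sfrp5 had 386 CPM in 89 Nr2f-high cells and 177 CPM in 56 Nr2f-low cells, and Myl2 had 6.77 CPM, against 32.0 CPM. At 2000 to under 5000 CPM, Sfrp5 had 430 CPM in 78 Nr2f-high cells and 154 CPM in 65 Nr2f-low cells, and Myl2 had 10.8 CPM, against 72.4 CPM. At 5000 CPM or more, Sfrp5 had 469.5 CPM in 29 Nr2f-high cells and 151 CPM in 39 Nr2f-low cells, and Myl2 had 18.0 CPM, against 168 CPM. Myl2 came from few cells, since the 18 cells with the most of it held 60.8% of its UMIs in the high-Actc1 cells.

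**Figure D5:**
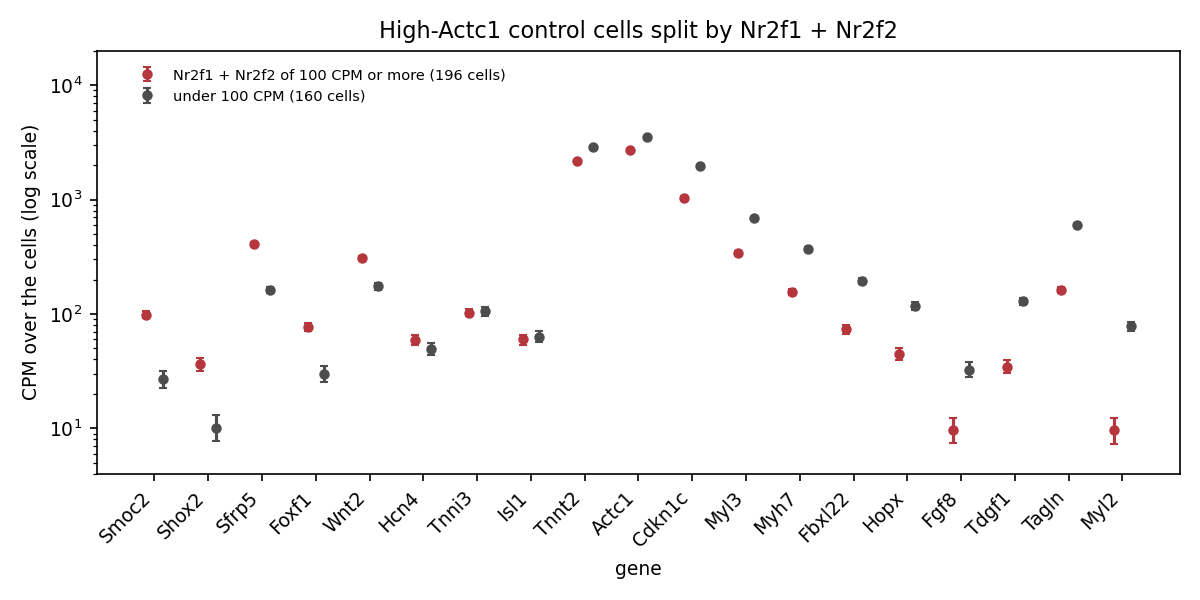
CPM summed over the high-Actc1 control cells (log y axis) for 19 genes (x axis), in the 196 cells with Nr2f1 plus Nr2f2 at 100 CPM or more (red) and in the 160 cells under 100 CPM (grey), with exact Poisson 95% intervals. Sfrp5 is at 412 against 162 CPM, Tnni3 at 103 against 105 CPM and Myl2 at 9.58 against 78.0 CPM.

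In the Zbtb16 knockout library 14 of 9449 cells met the same limits (0.148%, 0.0810 to 0.249%), against 356 of 6354 in the control library (5.603%). The 14 knockout cells held 662092 UMIs, so low genes are imprecise there. They had 1595 CPM of Actc1 (1500 to 1694), against 3094 CPM (3063 to 3125) in the high-Actc1 control cells. Myl7 had 545 CPM (490 to 605) in the 14 knockout cells, against 5417 CPM (5376 to 5459) in the 356 control cells, and Pln had 4.53 CPM (0.934 to 13.2), against 118.5 CPM (112.5 to 125). Tagln, a smooth muscle actin-binding protein, had 4443 CPM (4284 to 4607), against 366.5 CPM (356 to 377), and Acta2 had 5466 CPM, against 3247 CPM. Genotype and library cannot be told apart with 1 library of each.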

How the data were processed

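Each library was deposited as a matrix of raw UMI counts per gene and barcode (32285 genes), and the authors made these counts with Cell Ranger, per the submitters' processing notes and the file headers (header version 4). The notes also name R 4.1.1 and the build GRCm39 (mm39). The deposited counts summed to 308465930 UMIs in the control and 357324373 UMIs in the knockout library, of which 94.8% and 96.0% lay in the cells kept. Analysis steps of the authors beyond the matrices are not given in the sources used here.

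From the counts, UMIs were summed over the cells of a group and scaled to CPM. The log2 ratio used CPM plus 1, genes with 5 or more CPM in either sum were measured, and 2-fold was a rule of size, not a test. Intervals are exact Poisson (sums) and exact Clopper-Pearson (shares). Before cells holding a UMI of a gene were counted, all cells were thinned at random to 15000 UMIs. Genes named were the markers, the 15 largest ratios each way against all other control cells at 50 or more CPM, the 8 each way against cells of 100 to under 1000 CPM of Actc1, and the members of lists with the highest level or the largest ratio. Predicted, ribosomal and mitochondrial genes were not named by ratio. Other genes in the text were chosen after their values were seen. The cells, lists and limits were chosen with earlier results of these data known. The comparison of sums was tried on simulated Poisson counts. Those hold no spread between cells and no choice of cells on Actc1, so they check the calculation only. It used python 3.11.15, numpy 2.4.6, scipy 1.17.1 and pandas 2.3.3, with R 4.3.3 and edgeR 4.0.16 for the TMM scaling tried as an alternative. CArG boxes were searched in RefSeq promoter windows of GRCm38.p6.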

Additional observations from a re-analysis of the deposited data

How the results depend on the processing

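No paired analysis was possible because there was a single library of each genotype, with no tested result. The share of high-Actc1 cells (5.603%) was 3.54% with 30000 or more UMIs per cell, 8.64% at an Actc1 limit of 500 CPM and 3.32% at 2000 CPM. The 367 genes that were 2-fold or more higher became 194 with 10 CPM added in place of 1 and 240 with a filter at 20 CPM. The 296 lower genes became 84 and 141 under the same settings and 483 at a limit of 2000 CPM. The thick filament median (3.86) was 4.39 against cells under 100 CPM of Actc1, 4.16 with 0.1 CPM added, 3.12 with 10 CPM added and 3.26 without a filter. The pluripotency median (-1.29, 5 genes) became 0.01 in thinned cells, 0.14 without the 5% of cells with most UMIs and 0.12 with equal weight per cell. The skeletal muscle median (1.23, 1 gene) became -0.01 without a filter. The log2 ratio of Spink1 (-1.69) became 0.05 without the 5% of cells with most of the gene, an alternative chosen after seeing the data. The cause was not tested. Of 470 named genes 184 passed 2-fold. Between 0 and 53 of these no longer did under the 16 alternatives, 53 with 10 CPM added. Some alternatives could not lower this count. A filter at 20 CPM or no filter leaves the ratio of each gene as it was, and adding 0.1 CPM can only enlarge it.

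With 1 library per genotype, differences between cells of 1 sample carry no estimate of variation between samples, and a cell count near the limits depends on depth. Doublets were not called.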

Other observations

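A few high-Actc1 cells carried most of the Ankrd1. At 200 or more CPM of Ankrd1, a limit chosen after values were seen, there were 16 of the 356 cells, with a median of 34795 UMIs, against 28140 UMIs in the other 340, and 26 of the other control cells passed the same limit. In their sum Tagln had 2812 CPM (2703 to 2924) in the 16 cells and 174.5 CPM (167 to 182) in the 340 cells. Acta2 had 5971 CPM in the 16 cells and 3034 CPM in the 340 cells, and the keratin gene Krt19 had 79.4 CPM, against 17.2 CPM. Pmp22, which was lower over the high-Actc1 cells as a whole, had 561.5 CPM, against 126 CPM. Cardiac genes did not share a direction. Tnnt2 had 2529 CPM, against 2514 CPM, and Nkx2-5 had 82.8 CPM, against 84.4 CPM. Actc1 had 4122 CPM, against 3013 CPM. Myl3 had 344.5 CPM (307 to 385), against 515 CPM (502 to 528), and Ttn had 1418 CPM, against 2014 CPM.

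The imprinted gene Mest had 776 CPM in the high-Actc1 cells and 1657 CPM in the other control cells, and Igf2r, another imprinted gene, had 419.5 CPM, against 273 CPM.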
